A study of Chlamydomonas reinhardtii with 9 samples.

Results

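The ends of the 17 nuclear chromosomes of Chlamydomonas reinhardtii, a unicellular green alga, were examined for peaks of tagged PAF1 and SKIP. A peak belonged to an end when its midpoint lay within 100 kb of the first base of a chromosome (left end) or within 100 kb of the last base that any peak covered on it (right end). This gave 34 ends with 3828 peaks, of 117666 peaks deposited in 6 lists, and 113387 further peaks lay in the chromosome interiors. Each library had 8 to 17 peaks in the last 2 kb inside the limit and 10 to 18 in the first 2 kb outside. In bins of 10 kb the mean density over both sides fell across it. It went from 1.32 to 1.09 times that of the interiors for PAF1-HA and from 1.43 to 0.996 times for SKIP-HA. At left ends it fell from 1.21 to 0.700 and from 1.26 to 0.935 times. At right ends PAF1-HA rose from 1.43 to 1.49 times, while SKIP-HA fell from 1.60 to 1.06 times. In the next bin, 110 to 120 kb, both sides together were at 1.25 and 1.16 times. The ends made up 3.04% of the 112 Mb spanned. The peaks come from ChIP-seq: chromatin was fixed with formaldehyde, sheared and pulled down through the HA epitope tag, and its DNA was sequenced. Of the samples, 3 libraries carry the label paf1 and 3 the label skip; the design text names the lines PAF1-HA and SKIP-HA. All are of strain CC5325, and the labels state neither the promoter of the tagged gene, nor the number of clones, nor whether the native gene remained, while their protocol text speaks of CRISPR-Cas9 mutants of both genes. Another 3 libraries are labelled WT, and their peaks were not analysed here, so no signal of untagged cells stands beside any value. Replicate 3 of each line carries other label fields than replicates 1 and 2. Nothing in the labels says that replicates are separate cultures, so p-values here describe the spread among the libraries at hand, which may be technical.

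PAF1 is a subunit of the PAF1 complex, which accompanies RNA polymerase II along transcribed genes and is needed for several histone modifications there. SKIP belongs to the SNW-domain proteins, which act in pre-mRNA splicing and in transcription. In many eukaryotes the DNA next to the telomeres, the subtelomere, is rich in repeats and packed into repressive chromatin, with genes becoming more frequent further inward. In Chlamydomonas most subtelomeres are known to hold arrays of satellite repeats.

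Averaged over 100 kb, the ends held slightly more peaks per length than the interiors. PAF1-HA libraries had 162, 159 and 166 peaks per Mb at the ends and 145, 151 and 157 in the interiors, in the order of their replicates. SKIP-HA libraries had 184, 226 and 229 peaks per Mb at the ends and 175, 198 and 220 in the interiors. The ends were denser in each of the 6 libraries, by 1.04-fold to 1.14-fold. The mean log2 ratio of ends to interiors was 0.11 ± 0.056 (SD, n = 6), with a two-sided exact sign-flip permutation p of 0.03125, the smallest that 6 libraries allow. This average depended on how far inward it reached and on the background, since against the 100 to 500 kb next to the ends alone it was -0.0092 (exact permutation p = 0.75). With ends of 50 kb the log2 ratio turned to -0.14 (exact permutation p = 0.03125). Without the 3 ends with the most peaks, which lowers it by construction, it was -0.038. Such a p-value, here and below, describes agreement among libraries and does not show that ends differ from other stretches of the same genome. Among single interior windows of 100 kb, 22.4% were above their own chromosome's interior density in all 6 libraries, and 29.6% were below it.

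Peak density changed with distance from the end. Behind the tip lay a sparse stretch for both proteins, and further inward their densities were above the interior, while the tip itself differed between left and right ends. In the outermost 2 kb, PAF1-HA libraries had 23 to 25 peaks over the 34 ends and SKIP-HA libraries 19 to 24. The same counts correspond to 2.34 ± 0.0054 times the interior density for PAF1-HA and 1.64 ± 0.32 times for SKIP-HA (SD, n = 3 each). Between 2 and 10 kb only 14 to 15 PAF1-HA peaks and 18 to 24 SKIP-HA peaks were found, or 0.358 ± 0.0068 and 0.403 ± 0.0886 times the interior density. From 10 to 30 kb the density was 0.866 ± 0.103 times that of the interior for PAF1-HA and 0.785 ± 0.0748 times for SKIP-HA. From 30 to 100 kb it was 1.18 ± 0.0305 and 1.23 ± 0.0520 times the interior density, and from 100 to 160 kb 1.22 ± 0.0506 and 1.19 ± 0.0651 times. These ranges were drawn after the profile had been seen and carry no test. The high density of the outermost 2 kb came from right ends, where it was 3.45 ± 0.231 times the interior for PAF1-HA and 2.90 ± 0.444 times for SKIP-HA. There the rule itself places a peak, since a right end is where the outermost peak of any library stops. At left ends, which no peak defines, it was 1.24 ± 0.234 times the interior for PAF1-HA (5 to 7 peaks per library) and 0.368 ± 0.276 times for SKIP-HA (1 to 4 peaks). The stretch from 2 to 10 kb was sparse on both sides, at 0.390 and 0.375 times the interior on the left and 0.325 and 0.431 times on the right, for PAF1-HA and SKIP-HA in turn.

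The contrast chosen for testing set the outermost 10 kb against the stretch 90 to 100 kb from the end. In the outermost 10 kb, PAF1-HA libraries had 109, 115 and 118 peaks per Mb and SKIP-HA libraries 129, 141 and 109. At 90 to 100 kb, PAF1-HA libraries had 197, 197 and 203 peaks per Mb and SKIP-HA libraries 265, 282 and 297. The outer bin was lower in every library, and its values did not overlap with those of the inner bin. Over both sides, the outer bin lay at 0.754 times the interior density for PAF1-HA and 0.650 times for SKIP-HA. The inner bin lay at 1.32 and 1.43 times, so the contrast holds a dense inner bin as well as a sparse outer one. The mean log2 ratio was -0.98 ± 0.25 (SD, n = 6; two-sided exact sign-flip permutation p = 0.03125). In PAF1-HA the log2 ratio was -0.81 ± 0.042 and in SKIP-HA -1.16 ± 0.25 (SD, n = 3 each), with no overlap between the groups. An exact permutation test of that difference gave p = 0.1, as low as 3 libraries against 3 can reach. The sides were also taken apart after seeing the data, and the log2 ratio was -1.45 at left ends and -0.70 at right ends. Against the interior, the outermost 10 kb held 0.560 times the density for PAF1-HA and 0.374 times for SKIP-HA at left ends, but 0.949 and 0.926 times at right ends, where 3 of 6 libraries were above the interior. With left ends counted from the first peak of any library, the ratio over left and right ends together was -0.28 in place of -0.98. Such a count places a peak at each left tip by construction. Single bins varied further inward too: the 20 bins of 10 kb between 100 and 300 kb ranged from 0.840 to 1.5 times the interior density for PAF1-HA and from 0.862 to 1.41 times for SKIP-HA.

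**Figure D1:**
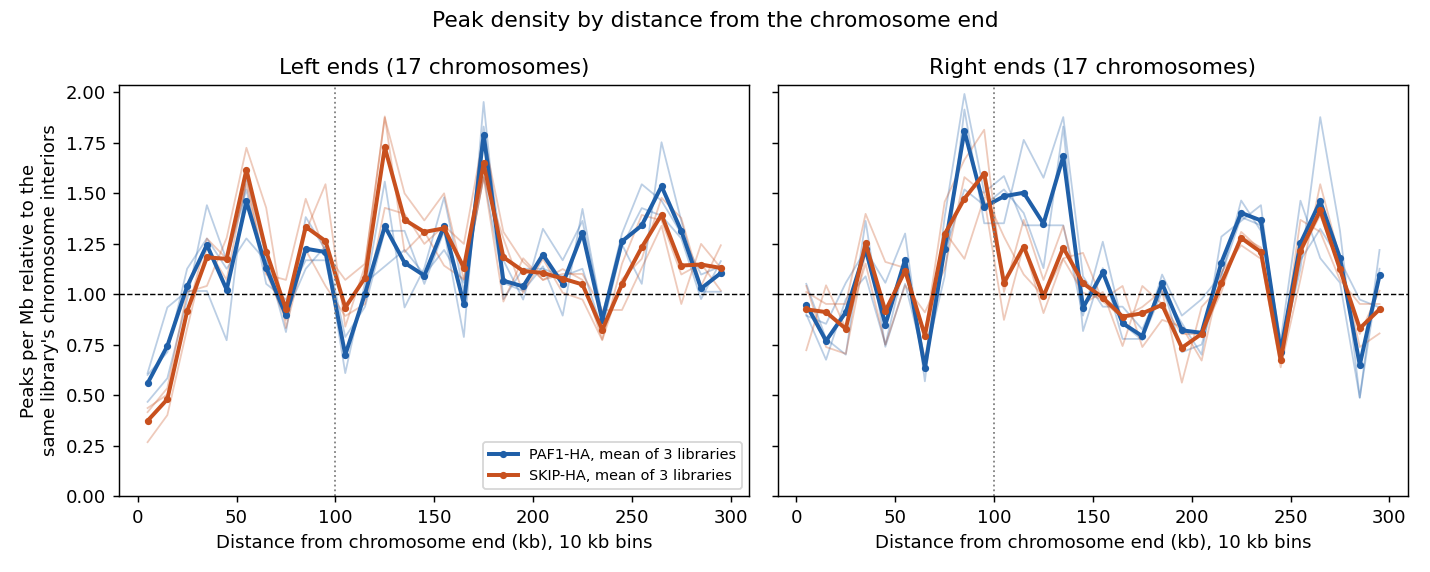
Peaks per Mb in 10 kb bins against distance from the left or right chromosome end (kb), divided by the density of the same library's chromosome interiors. Thin lines are single libraries, thick lines the means of 3 libraries, the dashed line the interior level and the dotted line the 100 kb limit; the first bins at left ends lie lowest, at 0.560 for PAF1-HA and 0.374 for SKIP-HA.

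At 10 of 17 left ends the outermost peaks of the 6 libraries lay within 1123 bp of each other, and at the other 7 they were 3802 to 18644 bp apart. The examples here were chosen after their values had been seen. On chromosome 2 the outermost peak of the 6 libraries had its midpoint between 20423 and 20444 bp from the start, and on chromosome 3 between 38664 and 38730 bp. On chromosome 4 it lay between 14934 and 14998 bp, on chromosome 13 between 17962 and 18030 bp and on chromosome 17 between 34911 and 35138 bp. Such midpoints fell within 200 bp of each other at 6 left ends, those of chromosomes 2, 3, 4, 10, 13 and 14. By contrast, they ranged from 371 to 19015 bp on chromosome 5, from 545 to 18562 bp on chromosome 7 and from 16889 to 30439 bp on chromosome 8. On chromosomes 1, 9, 11 and 16 they were likewise kilobases apart. The left end of chromosome 15 held 0 peaks in each library, and the first peaks there lay between 127379 and 127923 bp. Among the 1078 full interior windows of 100 kb, 16 were likewise without a peak in any library. None of the 6 libraries had a peak in the outermost 10 kb at 11 of 17 left ends, and each of the 6 had one at 3. No share of interior stretches of 10 kb stands beside these counts, so they are a description only.

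**Figure D2:**
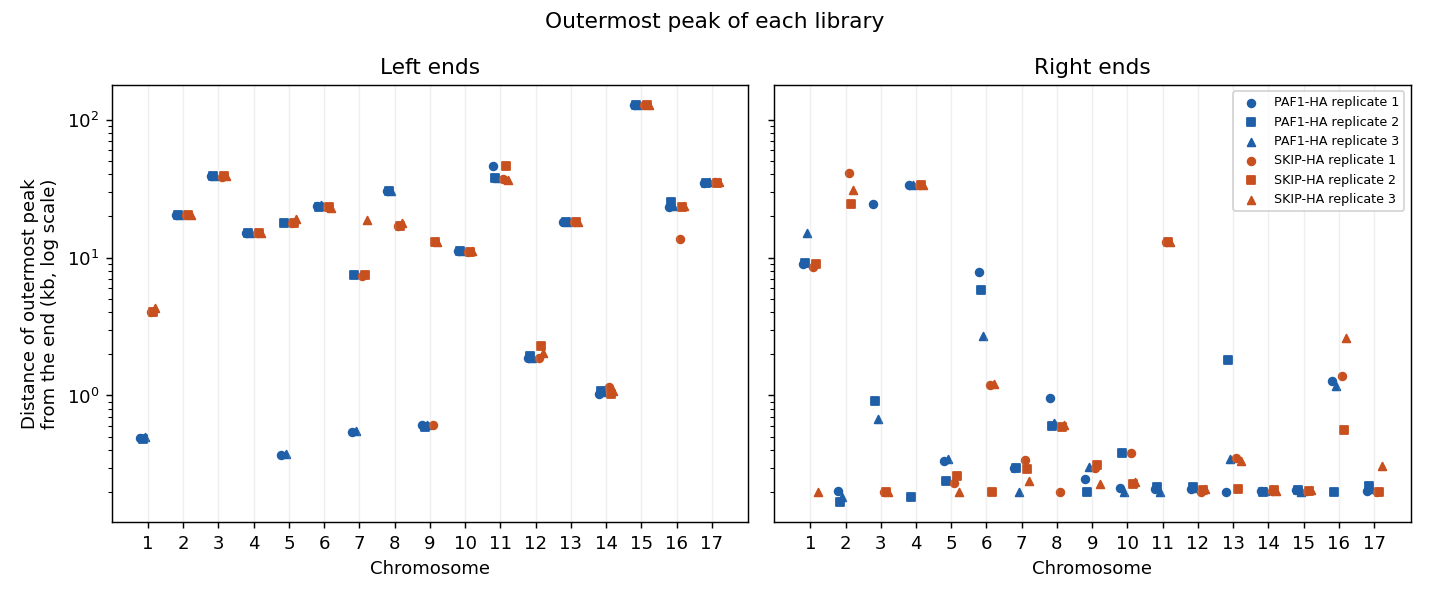
Distance from the chromosome end to the midpoint of the outermost peak (kb, log scale) for each library, by chromosome, at left and right ends; colours mark the protein and symbols the replicate. At 6 of 17 left ends the 6 libraries lie within 200 bp of each other and at 7 they are over 3 kb apart, while at right ends, which a peak defines, most points lie near 0.2 kb.

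A few left tips carried peaks mainly of PAF1-HA. A peak within 1 kb of the first base was present at 4, 2 and 4 left ends in the PAF1-HA libraries. In the SKIP-HA libraries it was present at 1, 0 and 0, although the SKIP-HA lists are longer. Within 2 kb the counts were 6, 4 and 6 against 3, 1 and 1. The difference was smaller within 10 kb, at 6, 5 and 6 against 5, 4 and 3. On chromosome 14 the outermost peaks of all 6 libraries lay just past 1 kb, at 1028 to 1143 bp. At chr1:282-700, all 3 PAF1-HA libraries and 0 SKIP-HA libraries had a peak, with centres within 19 bp. At chr9:391-812, 3 PAF1-HA libraries and 1 SKIP-HA library had one, with centres within 22 bp. Replicates 1 and 3 of PAF1-HA, and 0 SKIP-HA libraries, had a peak at chr5:172-578 and at chr7:346-754, with centres within 7 and 9 bp. These 4 tips were singled out after their values had been seen and carry no test. No share of interior stretches of 1, 2 or 10 kb stands beside the counts, which rest on few peaks. Over the whole of the ends, regions with all 3 PAF1-HA and 0 SKIP-HA libraries made up 0.729%, against 0.834% of all regions.

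At 9 of 17 right tips the peaks of all libraries came within 1 kb of the end. A peak within 1 kb of the right end was found at 12, 14 and 13 of 17 ends in the PAF1-HA libraries and at 11, 13 and 12 in the SKIP-HA libraries. The rule requires such a peak in only 1 library. The outermost regions with a peak in all 6 libraries were chr14:4200674-4201078, chr15:5823844-5824251 and chr12:9928038-9928453. Their midpoints were 202.5, 204 and 208 bp from the end. Other right tips differed between libraries, in part by protein. All 3 PAF1-HA libraries, and 0 of the 3 SKIP-HA libraries, had a peak at chr2:8655406-8655784 and at chr11:4478625-4479034. The next SKIP-HA peaks lay 24254 to 40894 bp and 12980 to 13035 bp from these ends. On chromosome 3 the opposite held in a pair of regions, chr3:9251192-9251599 and chr3:9252867-9253267, where only the 3 SKIP-HA libraries had peaks. Between them, at chr3:9252159-9252829, both proteins had peaks in 2 of 3 libraries. On chromosome 6 the outermost SKIP-HA peaks lay 200 to 1216 bp from the right end and those of PAF1-HA 2694 to 7793 bp. The tip of chromosome 1 rested on SKIP-HA replicate 3 alone and that of chromosome 4 on PAF1-HA replicate 2 alone. These tips were likewise chosen after their values had been seen. All 6 chromosomal intervals narrower than 400 bp, at 268 to 398 bp, lay within 500 bp of a right end, and all belonged to PAF1-HA libraries. They fell on chromosomes 2, 4, 11 and 12, and chromosome 2 had 1 in each PAF1-HA library. Whether the narrow intervals bear on the PAF1-HA calls at chromosomes 2 and 11 was not tested.

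The 34 ends differed widely in their number of peaks, in an order that recurred between libraries. The mean over the 6 libraries ranged from 0 to 39.8 peaks per end, with a median of 18.3, and the interior windows of 100 kb had a median of 17.3 (5th to 95th percentile 5 to 29). Counts at the 34 ends were correlated between libraries, with Pearson's r of 0.844 to 0.920 for the 6 pairs within a group and 0.803 to 0.893 for the 9 pairs between groups. This is a description over ends that share a genome and a mapping. Measured against its own chromosome's interior, an end was denser in all 6 libraries in 8 of 34 cases (23.5%), against 22.4% of interior windows, and sparser in all 6 in 6 cases (17.6%), against 29.6%. The number of ends at the high side was therefore close to the background. The groups took opposite sides in 1 of 34 ends, the right end of chromosome 11, against 2.41% of interior windows. There the PAF1-HA libraries were only slightly below their interior, at no less than 0.926 times its density.

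The richest end was the right end of chromosome 16 (chr16:7918646-8018645). PAF1-HA libraries had 39, 35 and 31 peaks there and SKIP-HA libraries 38, 49 and 47, with 2.15 times the density of the chromosome's interior. Its peaks lay in all parts of it, with 33.1% in the outer 30 kb and 33.9% at 30 to 60 kb. The longer stretch from 60 to 100 kb held 33.1%. The left end of chromosome 12 had 35, 36 and 42 PAF1-HA peaks and 35, 46 and 40 SKIP-HA peaks, or 2.24 times its interior. There 45.3% of the peaks lay in the outer 30 kb. The right end of chromosome 5 followed, with 36, 25 and 30 PAF1-HA and 26, 38 and 40 SKIP-HA peaks. These 3 ends lay above the 98th percentile of the interior windows, at the 99.5, 99.4 and 98.1 percentiles. Chromosome 14 at its left end and chromosome 1 at its right end each averaged 25.3 peaks over the libraries.

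The poorest end was the empty left end of chromosome 15. Next in order was the right end of chromosome 2, with 7, 3 and 5 PAF1-HA and 6, 6 and 5 SKIP-HA peaks, or 0.307 times its interior. In it a stretch of 24050 bp without a midpoint from any library followed the PAF1-HA peaks of the tip. On chromosome 11 the left end had 6, 9 and 9 PAF1-HA and 14, 13 and 16 SKIP-HA peaks, and 0 peaks in its outer 30 kb. The right end of chromosome 6 averaged 11.3 peaks and was the reverse in shape, with 64.7% of its peaks in the outer 30 kb. On chromosome 17 the left end averaged 11.7 peaks, again with 0 in the outer 30 kb. On the left end of chromosome 3, 94.5% of the peaks lay beyond 60 kb.

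**Figure D3:**
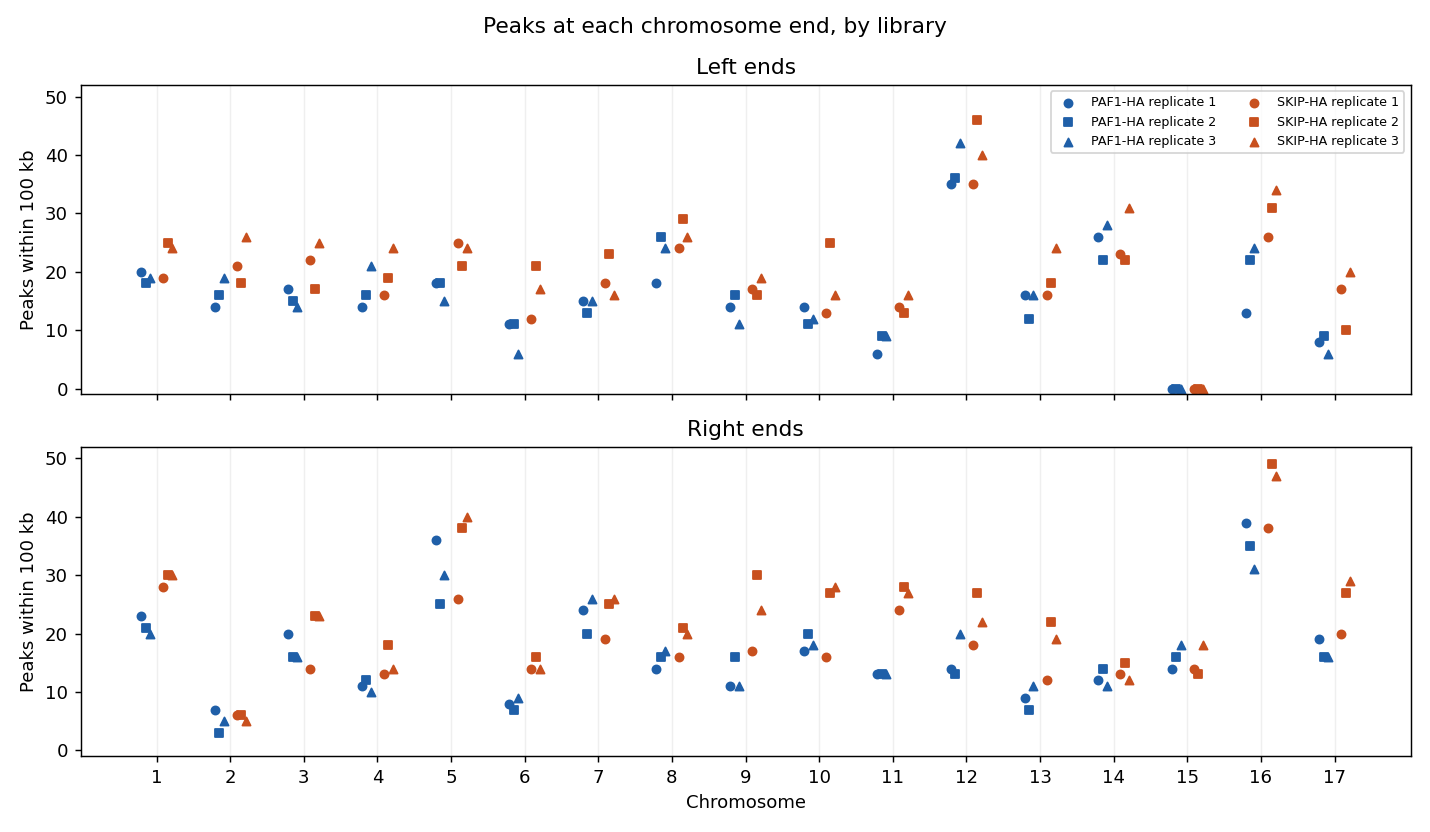
Number of peaks within 100 kb of each left (top) and right (bottom) chromosome end, by chromosome; each point is 1 library, coloured by protein with the symbol giving the replicate. The left end of chromosome 12 and the right ends of chromosomes 5 and 16 stand highest, at 25 to 49 peaks, and the left end of chromosome 15 is at 0 in all 6 libraries.

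Left and right ends held similar totals, and their difference did not pass the test. PAF1-HA libraries had 259, 270 and 281 peaks at left ends and 291, 270 and 282 at right ends. SKIP-HA libraries had 318, 354 and 382 at left ends and 308, 415 and 398 at right ends. The mean log2 ratio of left to right was -0.069 ± 0.11 (SD, n = 6), with an exact sign-flip permutation p of 0.1875. This comparison depended on how the left end was defined. Counted from the first peak, as right ends are counted from the last, left ends were denser in the 6 libraries together by a log2 ratio of 0.20 (exact permutation p = 0.03125). By construction, that shift drops the stretch before the first peak and places a peak at each left tip.

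PAF1-HA and SKIP-HA put nearly the same share of their peaks at the ends. PAF1-HA libraries had 3.38%, 3.19% and 3.21% of their chromosomal peaks there, with 95% Wilson intervals between 2.94% and 3.67%. SKIP-HA libraries had 3.19%, 3.46% and 3.17%, with intervals between 2.95% and 3.71%, all of which cover counting error only. The means were 3.26% ± 0.108 and 3.27% ± 0.163 (SD, n = 3 each), a difference of 0.0127 percentage points that was smaller than the spread between libraries (exact permutation p = 1). The number of peaks at ends was nevertheless higher for SKIP-HA, at 626, 769 and 780, than for PAF1-HA, at 550, 540 and 563, as were the lists as a whole.

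For single ends, the share of a library's peaks was compared in a limma fit over all windows of 100 kb. Of 33 end windows tested, 0 passed an adjusted p of 0.05, where 1.03% of all 1070 windows did. With the replicate number as a block the count was again 0, where 1.68% of all windows passed. At an unadjusted p under 0.05 there were 7 end windows, 21.2% of those tested, where 14.5% of all windows were. Groups did not overlap in 3 end windows with SKIP-HA higher and 4 with PAF1-HA higher, against a background of 9.91% and 10% of all windows. The median log2 difference, SKIP-HA share over PAF1-HA share, was -0.0023 over the end windows and 0.0055 over the interior windows. Toward SKIP-HA, the lowest p belonged to the right end of chromosome 11, with 13, 13 and 13 PAF1-HA peaks and 24, 28 and 27 SKIP-HA peaks. Its log2 difference in share was 0.60 (SE 0.188, limma adjusted p = 0.145). The right end of chromosome 13 had 9, 7 and 11 PAF1-HA and 12, 22 and 19 SKIP-HA peaks, giving 0.53 on the same log2 scale (SE 0.223, limma adjusted p = 0.268). Toward PAF1-HA, the right end of chromosome 15 had 14, 16 and 18 against 14, 13 and 18 peaks and a log2 difference in share of -0.48 (SE 0.194, limma adjusted p = 0.268). The right end of chromosome 7 had 24, 20 and 26 against 19, 25 and 26 peaks and a difference of -0.39 (SE 0.194, limma adjusted p = 0.376).

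The call at single ends depended on which peaks entered. When only peaks overlapped by another library of the same group were kept, 6 of 32 end windows passed, or 18.8%, where 13% of all windows did. This selection lowers the spread within a group by construction. The 6 were the left end of chromosome 17 and the right ends of chromosomes 9, 11 and 13, higher in SKIP-HA, and the right ends of chromosomes 7 and 15, higher in PAF1-HA. With these peaks, the left end of chromosome 17 had 2, 3 and 5 PAF1-HA and 12, 8 and 14 SKIP-HA peaks, with a log2 difference in share of 1.28 (SE 0.268, limma adjusted p = 0.0111).

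Peaks at the ends recurred between libraries more than interior peaks did. The share of a library's peaks that were overlapped by another library of its group was 75.8%, 75.4% and 75.3% at the ends in PAF1-HA, and 72.6%, 70.3% and 68.4% in the interiors. In SKIP-HA it was 81.3%, 72.0% and 72.1% at the ends and 75.3%, 70.5% and 66.0% in the interiors. The ends were higher in 6 of 6 libraries, by 4.79 ± 2.03 percentage points (SD, n = 6; two-sided exact sign-flip permutation p = 0.03125). An overlap counts for both libraries of a pair, so the values within a group depend on each other. The test takes the 6 values as independent, so n and p can overstate the evidence. The same limit holds for each p-value of sharing below. The ends were also denser on average, as given above, and the part of density in this difference was not tested. The ends remained higher in each library without their outermost 10 kb, an alternative chosen after seeing the data (exact permutation p = 0.03125). The base-pair Jaccard index, the covered length shared by a pair of libraries over their combined covered length, was higher at the ends for 15 of 15 pairs of libraries, by 1.18-fold to 1.35-fold. It averaged 0.276 within PAF1-HA, 0.257 within SKIP-HA and 0.238 between the groups at the ends. The interior averages were 0.217, 0.212 and 0.191.

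The excess lay in regions that all libraries shared. Peaks of the 6 libraries that overlapped were merged, which gave 1098 regions at the ends and 35848 in the interiors. A peak in each of the 6 libraries was found for 149 regions at the ends, or 13.6% (95% exact binomial interval 11.6 to 15.7), against 8.02% (7.74 to 8.31) in the interiors. Regions of a single library made up 33.0% (30.2 to 35.8) at the ends and 35.5% (35.0 to 36.0) in the interiors. Regions of 2 to 5 libraries were at the ends within 2 percentage points of their interior shares. The share with all 6 libraries was 25.9% (15.3 to 39.0) of 58 regions in the outermost 10 kb, 21.2% (12.1 to 33.0) of 66 regions at 10 to 20 kb and 12.4% (7.26 to 19.4) of 129 regions at 90 to 100 kb. It did not fall steadily in between, with 7.89% at 40 to 50 kb, 18.1% at 50 to 60 kb and 8.04% at 60 to 70 kb. Beyond the ends it was 8.28% (6.30 to 10.6) at 100 to 150 kb, 10.2% (7.89 to 13.0) at 150 to 200 kb and 9.29% (7.72 to 11.1) at 200 to 300 kb. It was 14.9% at left and 12.4% at right ends. Among ends and interior windows with at least 10 regions, the median share was 13.3% for 33 ends and 7.32% for 1035 windows, and 27 of the 33 ends lay above the interior median. Intervals cover counting error only, and regions are not replicates.

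**Figure D4:**
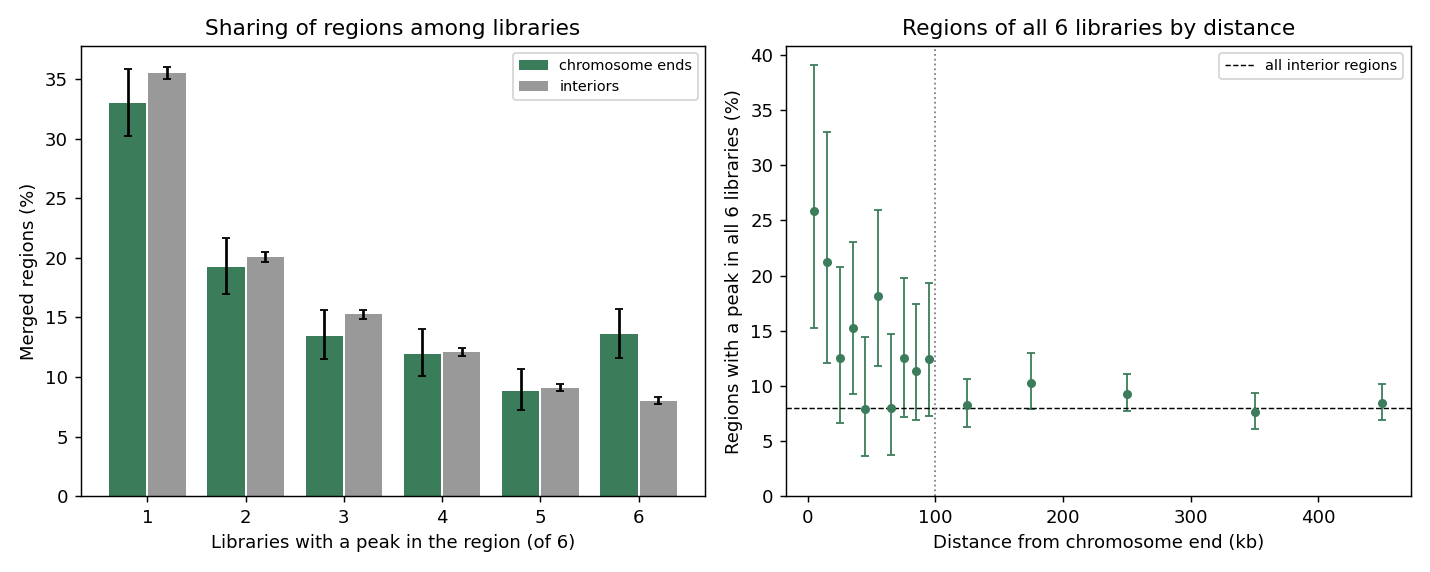
Left, percent of merged regions by the number of libraries with a peak in them, at chromosome ends and in interiors; right, percent of regions with a peak in all 6 libraries against distance from the end (kb), with the dashed line at the interior value of 8.02%. Bars and points carry 95% exact binomial intervals. The ends exceed the interiors at 6 libraries, with 25.9% in the outermost 10 kb, where the rule places a peak at each right tip.

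Where each library had exactly 1 peak in a region, the 6 centres lay within a median of 65 bp at the ends (76 regions) and 81 bp in the interiors (1278 regions). The closest agreement at the ends was at the right tip of chromosome 14 named above, with centres within 5 bp. Next were chr14:4182506-4182911 with 6 bp and chr3:9228779-9229185 with 7 bp. The right tip of chromosome 15 followed with 8 bp, and chr5:56679-57087 with 9 bp. Further inward, chr11:85606-86019 had 14 bp and chr8:68519-68933 had 15 bp. The right tip of chromosome 12 had 16 bp, chr14:29855-30273 had 19 bp, and chr2:20224-20644, which is the outermost region of its left end, had 21 bp. Of these 10 regions, 3 were the outermost regions of right ends. At those 3 the outermost peak sets the end, so the rule bounds their centres on the outer side. The median of 65 bp at the ends includes such tips.

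Regions with all 3 libraries of one protein and 0 of the other had shares at the ends near those of the whole genome. PAF1-HA had 8 of them among 1098, or 0.729%, against 0.834% of all 36946 regions, and SKIP-HA had 28, or 2.55%, against 2.49%. Of the 8 PAF1-HA regions, 3 were the tips of chromosomes 1, 2 and 11 described above. Among the others, chr5:3589954-3590383 had centres within 30 bp and chr12:68951-69501 within 151 bp. Of the SKIP-HA regions, those with the closest centres were the pair at the right tip of chromosome 3, within 1 and 8 bp. The outer region of the pair sets its end, so the rule bounds its centres on the outer side. Next came chr11:4401231-4401662 with 32 bp, chr6:98349-98797 with 49 bp and chr9:6746581-6747039 with 59 bp. Regions with peaks of both proteins made up 53.1% at the ends and 50.3% in the interiors.

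Peaks at the ends were somewhat more often grouped into domains, that is runs of consensus regions (a peak in at least 2 of 3 libraries) at most 1 kb apart. For PAF1-HA, 51.9% of 437 consensus regions at the ends were in domains, against 46.8% in the interiors, and for SKIP-HA 56.5% of 563 against 51.1%. Consensus regions were also denser at the ends, with 129 against 116 per Mb for PAF1-HA and 166 against 149 for SKIP-HA. The part of that density in the domain shares was not tested. The median domain was shorter at the ends, with 1620 bp against 1895 bp for PAF1-HA and 1806.5 bp against 1933 bp for SKIP-HA. For single peaks, the share with a neighbour within 1 kb was higher at the ends in 5 of 6 libraries, by 2.33 ± 2.36 percentage points (SD, n = 6; exact permutation p = 0.09375). Of the domains at the ends, 2 of 91 in PAF1-HA and 5 of 122 in SKIP-HA exceeded 5 kb. In the interiors 81 of 2281 and 124 of 3178 did. The longest of both proteins overlapped on the left arm of chromosome 3, beyond the long stretch without peaks. There the PAF1-HA domain of 9 regions ran from 72641 to 82434, and 89.1% of it was covered by SKIP-HA domains. The SKIP-HA domain of 14 regions ran from 78581 to 93676, and 25.5% of it was covered by PAF1-HA domains. The second PAF1-HA domain, chr7:6383430-6389304, was covered to 84.7%. The next PAF1-HA domains were chr12:9979-14636, covered to 19.2%, chr14:85441-89773, covered to 12.0%, and chr12:35927-39780, covered whole. The further long SKIP-HA domains were chr11:4378538-4386124, chr5:3540738-3546608, chr8:66257-71884 and chr16:41222-46845, and PAF1-HA domains covered at most 46.6% of each. Domain shares and lengths were not tested.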

How the data were processed

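The material was 6 ChIP-seq peak lists, 3 of PAF1-HA and 3 of SKIP-HA. The deposited values are start and end positions of peaks, 1 list per library, with no score, strand or read count, so read depth is unknown and no stricter calling threshold could be applied. Per the submitters' processing notes, the tools were Bowtie2 and HOMER (9 samples) and MACS3 (4 samples). Not given in the sources used here are their versions and roles, the genome build, the threshold and the control. Nor is the treatment of reads that map to several places, which can change peak calls in repeats. MACS3 is named for fewer samples than the 6 lists, and whether the lists differ in peak caller was not tested. Coordinates are 1-based in the files' own build, with no gene annotation of that build used. Chromosome lengths were taken as the largest peak end, so a right end may lie short of the sequence end. Overlaps and exact tests were computed in Python 3.11.15 (numpy 2.4.6, pandas 2.3.3, scipy 1.17.1), with figures in matplotlib 3.10.9. An overlap was at least 1 bp. Windows of 100 kb, tiled inward from the ends, were fitted with limma 3.58.1 in R 4.3.3 on log2((peaks + 0.5)/(library total + 1)) where the mean was at least 5 peaks, with Benjamini-Hochberg adjustment over all windows. The richest and poorest ends, the windows, the regions with the closest centres and the domains were named by rank. Other ends and tips were named after their values had been seen, as said beside them. The rule for the ends and the lists of comparisons were chosen with earlier results of these data known. Peaks on contigs and organelles stayed out of the comparisons.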

Additional observations from a re-analysis of the deposited data

Results flagged for a closer look

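The right end of chromosome 11 was below its chromosome's interior density in all 3 PAF1-HA libraries and above it in all 3 SKIP-HA libraries, the only end of the 34 where the groups took opposite sides. The PAF1-HA libraries were only slightly below, at no less than 0.926 times the interior density, and the highest SKIP-HA library was at 1.56 times. Among interior windows 2.41% had the groups on opposite sides, so 1 end is near the background. In share of peaks, SKIP-HA exceeded PAF1-HA there by 0.60 (log2), and the direct test of that difference did not pass (limma adjusted p = 0.145, and 0.128 to 0.371 over the alternatives other than the list of replicated peaks, where it was 0.0175).

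Peaks outside the chromosomes entered no comparison: the 6 lists together held 123 peaks on unplaced contigs, 297 on the plastome and 31 on the mitogenome, with 18 to 23 contig peaks per library.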

How the results depend on the processing

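The density of ends against interiors (log2 ratio 0.11) stayed positive with ends of 200 kb, a left end at the first peak, replicated peaks only and 400 bp intervals only (0.10 to 0.25). It turned to -0.14 with ends of 50 kb, to -0.0092 against the 100 to 500 kb next to the ends, to -0.038 without the 3 densest ends, which lowers it by construction (0.15 without the empty left end of chromosome 15), and to -0.36 for the outer 30 kb alone, the last 3 settings chosen after seeing the data. The SKIP-HA minus PAF1-HA share (0.0127 percentage points) turned to -0.0530 with ends of 50 kb, -0.0192 with 200 kb and -0.0115 with replicated peaks. Left against right (-0.069) turned to 0.053 with ends of 200 kb and 0.20 with left ends at the first peak, which drops the stretch before it by construction. The cause of these turns was not tested.

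With 1 library left out, ranges were 0.090 to 0.12 for ends against interiors, -1.02 to -0.89 for the outermost 10 kb, 4.91 to 6.09 percentage points for sharing, -0.0810 to 0.0749 percentage points for the group share and -0.092 to -0.037 for left against right, with 0 end windows called each time. For the first 3 of these the exact permutation p was 0.0625, the smallest 5 libraries allow. With replicates 1 and 2 only (smallest p 0.125) the same 3 values were 0.13, -0.92 and 5.92. Sharing with ends of 50 kb was 6.80 percentage points (exact permutation p = 0.0625). The p-values of sharing can overstate the evidence, since libraries of a group share their overlaps. Regions of all 6 libraries were 11.2% with ends of 200 kb (interiors 7.98%) and 6.64% with overlaps of 200 bp (interiors 3.76%). Replicated peaks gave 6 end windows called. A replicate block left the share difference at 0.0127 (exact permutation p = 1) and end windows called at 0, with 18 windows called over the genome against 11. Over windows, same-numbered libraries of the groups had r of -0.0398 to -0.0012, and no library correlated best with its own number in the other group. The numbers were therefore not taken to pair samples.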
